A study of Mus musculus with 6 samples.

Results

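The genes of the mitochondrial ribosomal proteins were followed through 2 knockdowns of chromatin remodelling subunits in differentiating mouse muscle cells. The members were the rows whose symbol is Mrpl or Mrps, a number and at most 1 letter, without pseudogenes, which gave 78 of the 27179 genes in each of the authors' deposited tables. By symbol 49 were named for the large subunit and 29 for the small one, and by the place of the proteins 51 were of the large subunit, 26 of the small, and Mrps36 of neither. All 78 had an adjusted p in both comparisons.

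The cells were mouse C2C12 myoblasts, an immortalised line, collected 48 h after near-confluent cultures were moved to low horse serum with fresh insulin to differentiate. Stably introduced shRNA constructs made the 3 groups, one scrambled and non-targeting, one directed at BAF250A and one at BRD9. SWI/SNF enzymes remodel chromatin in several forms, and BAF250A (gene Arid1a) marks the one called BAF while BRD9 marks ncBAF. Each group had 2 libraries of total RNA, named as biological duplicates with nothing said of how the cultures were separated, so any p here reflects the spread of 2 libraries a group, which may be technical. The title of the series asks whether differentiation needs the 2 forms differently. An shRNA acts through 1 construct in 1 cell line here, and libraries with an shRNA against BAF180 were not analysed here.

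Mitochondrial ribosomes translate the few proteins encoded by mitochondrial DNA, all of them parts of the oxidative phosphorylation complexes. Every protein of these ribosomes is encoded in the nucleus, made in the cytosol and imported. Many of them have a counterpart in bacterial ribosomes, while others are found in mitochondria alone. Muscle builds up mitochondria as myoblasts become myotubes, and the demand for mitochondrial translation rises with it.

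Several members that rose have processed pseudogenes, copies of the spliced transcript inserted elsewhere in the genome, and stretches of 4 such pairs are shown because reads of a copy and of the member can be hard to tell apart. Each stretch holds 60 coding bases of the member and the aligned bases of the pseudogene, from the transcripts of GENCODE M21 (GRCm38, which is mm10), and capitals mark the bases at which the pair differ.

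Mrps18c: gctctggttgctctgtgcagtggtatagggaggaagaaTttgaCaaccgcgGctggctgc
Gm15946: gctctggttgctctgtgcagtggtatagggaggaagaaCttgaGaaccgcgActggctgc
Mrpl21: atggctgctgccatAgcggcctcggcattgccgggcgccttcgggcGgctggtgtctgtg
D9Wsu149: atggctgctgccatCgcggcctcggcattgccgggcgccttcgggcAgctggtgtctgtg
Mrpl42: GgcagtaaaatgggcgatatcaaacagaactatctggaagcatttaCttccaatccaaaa
Gm6419: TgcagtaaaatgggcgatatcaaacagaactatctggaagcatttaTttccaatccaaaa
Mrpl23: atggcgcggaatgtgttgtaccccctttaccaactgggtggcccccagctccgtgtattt
Mrpl23-ps1: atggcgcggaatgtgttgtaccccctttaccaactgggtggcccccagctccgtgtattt

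The Mrps18c stretch runs from coding base 7 to 66, the Mrpl42 stretch from 9 to 68, and the stretches of Mrpl21 and Mrpl23 from 1 to 60. Over all aligned coding bases Mrps18c and Gm15946 (chromosome 17, 12962768 to 12963190, plus strand) were 94.6% identical, and Mrpl21 and D9Wsu149 (chromosome 9, 57482976 to 57483569, plus strand) were 97.0% identical. Mrpl42 and Gm6419 (chromosome 10, 74862988 to 74863416, minus strand) were 96.2% identical. Mrpl23 and Mrpl23-ps1 (chromosome 2, 74591330 to 74591909, minus strand) had 0 mismatches over the whole 438 coding bases, so no coding read can tell these 2 apart. In numbers for the whole family, 21 of the 78 members had a processed pseudogene elsewhere that held 5% or more of their 31-base words.

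Values per library are normalized counts, which are whole reads recovered from the deposited means, fold changes and standard errors and divided by a size factor. Which library of a group is A or B is unknown, so they are numbered 1 and 2 in no order. The libraries held 13956836 to 25233452 reads in the 19399 resolved genes. The summed members stood at 119121 and 246475 normalized counts in the 2 controls, at 149661 and 147062 in the BAF250A libraries and at 117876 and 152067 in the BRD9 libraries. The controls bracket the BAF250A libraries, and the lower BRD9 library lies just under the lower control. In bulk samples a smaller share of a cell type and less RNA per cell cannot be told apart. Arid1a, the gene of BAF250A, stood at 6536 and 3250 normalized counts in the controls and at 1365 and 1072 in BAF250A knockdown, and in the authors' deposited table it fell by 1.95 (SE 0.48, log2 scale, adjusted p = 0.000381). Brd9 stood at 799 and 1030 in the controls and at 189 and 385 in BRD9 knockdown, a fall by 1.60 (SE 0.54, adjusted p = 0.0252) in the authors' deposited table. Of 8 muscle markers, 5 fell in BAF250A knockdown and 1 rose in BRD9 knockdown. In the authors' deposited tables the early muscle myosin Myh3 had log2 fold changes of -4.38 (SE 0.44) with BAF250A and 0.41 (SE 0.51) with BRD9. Among 9 marker genes of other cells (macrophage, endothelial, epithelial and neuronal), 6 had mean normalized counts of 5.4 or less in the BAF250A table, while the neuronal Tubb3 and Map2 and the macrophage gene Cd68 were higher. With BAF250A all 3 fell, with log2 fold changes of -3.71, -3.45 and -2.53 in the authors' deposited table, and with BRD9 Tubb3 stood at -0.32, Map2 rose by 1.96 and Cd68 fell by 2.46. The 9 markers summed to 5171 and 7531 normalized counts in the controls, 462 and 498 in BAF250A knockdown and 4796 and 6382 in BRD9 knockdown, and their part in the members' values was not tested.

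Most members did not pass the test, and most of those that did had risen. In BAF250A knockdown 11 members rose and 2 fell by the authors' Wald test (adjusted p below 0.05), 13 of 78 together, against 28.7% of all 16450 genes tested (11.2% higher, 17.5% lower). In BRD9 knockdown 8 members rose and 0 fell, 10.3% of 78 against 14.4% of the 17198 genes tested (5.11% higher, 9.33% lower). At an unadjusted p below 0.05 the members came to 28 (35.9%) with BAF250A against 38.1% of all genes, and to 19 (24.4%) with BRD9 against 24.1%, 8 of these 19 lower. The share of members called was thus below that of all genes in both comparisons. A rise was called for 14.1% and 10.3% of the members. The median log2 fold change of the 78 members was -0.31 in BAF250A knockdown and -0.32 in BRD9 knockdown, beside -0.19 and -0.14 for the 16311 genes tested in both tables. The 25th and 75th percentiles were -0.83 and 0.55 with BAF250A and -0.84 and 0.45 with BRD9. The smallest change called among all genes was 1.02 and 1.29 log2 units in size, so smaller shifts were not detectable at this precision.

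**Figure D1:**
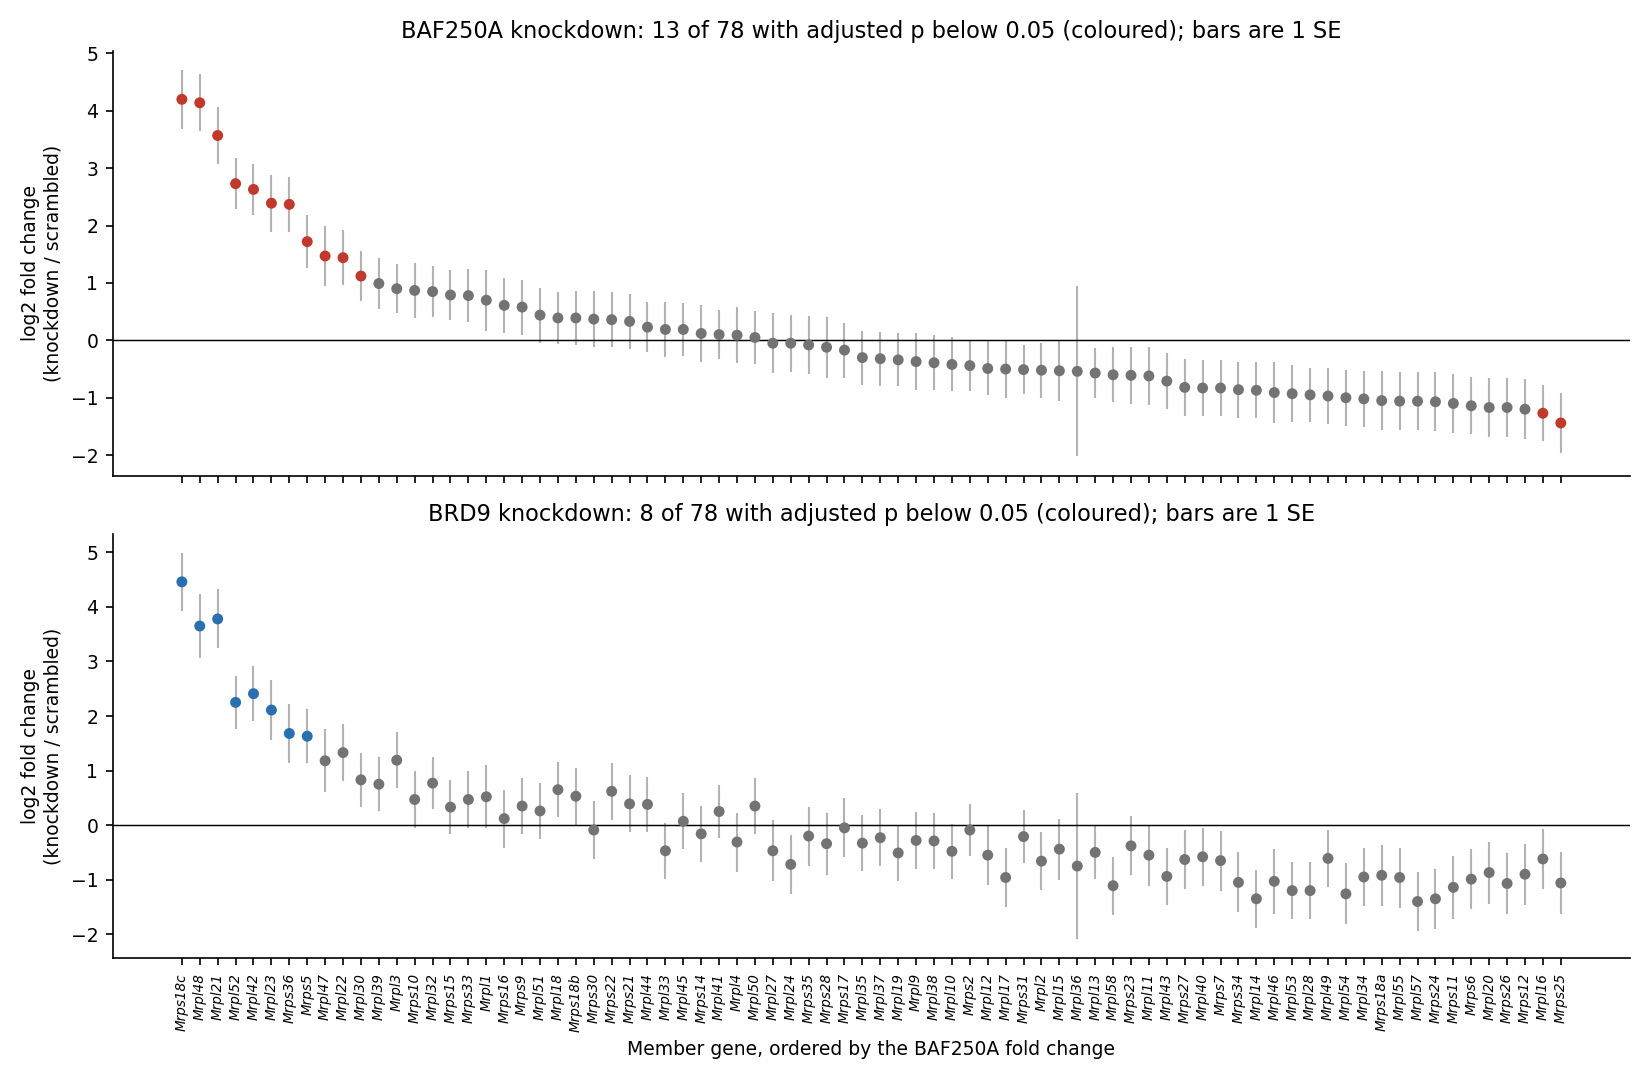
Log2 fold change of knockdown over scrambled shRNA from the deposited tables for each of the 78 members (horizontal axis, ordered by the BAF250A value), with bars of 1 standard error; coloured points have an adjusted p below 0.05. The highest members stand at 4.20 and 4.46, and the lower end runs to -1.44 and -1.40.

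All 8 members that rose in BRD9 knockdown had also risen in BAF250A knockdown. Both comparisons use the same 2 control libraries, so the values are given side by side and the overlap supports nothing by itself; 3.97% of all genes tested in both rose in both. Of the 8, 7 have a processed pseudogene copy. Rows with a pseudogene symbol ending in -ps mostly fell in both knockdowns, and the part of shared reads was not tested.

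Mrps18c, a small-subunit protein with a bacterial counterpart and 2 paralogues in the ribosome (gene 68735, chromosome 5, 100798627 to 100804471), had the highest fold change in both tables. It stood at 27.3 and 23.8 normalized counts in the controls, at 594 and 431 in BAF250A knockdown and at 629 and 661 in BRD9 knockdown. Each knockdown library was thus far above both controls, and the controls lay close together. In the authors' deposited tables it rose by 4.20 (SE 0.51, adjusted p = 4.59e-15) and 4.46 (SE 0.53, adjusted p = 3.91e-15), which is 18.4-fold and 22.0-fold.

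Mrpl48, a large-subunit protein found in mitochondria alone (gene 52443, chromosome 7, 100545751 to 100608301), stood at 26.7 and 50.3 normalized counts in the controls. It was at 778 and 690 in BAF250A knockdown and at 393 and 697 in BRD9 knockdown. The lowest knockdown library lay well above the higher control. The authors' deposited log2 fold changes were 4.14 (SE 0.50, adjusted p = 8.01e-15) and 3.65 (SE 0.58, adjusted p = 8.82e-09). Its 633 coding bases were 98.1% identical to those of the pseudogene Mrpl48-ps, and the part of shared reads in its rise was not tested.

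Mrpl21, a large-subunit protein with a bacterial counterpart (gene 353242, chromosome 19, 3282901 to 3292837), stood at 45.7 and 75 normalized counts in the controls, at 887 and 644 in BAF250A knockdown and at 729 and 1117 in BRD9 knockdown. No library of a knockdown came near a control. It rose by 3.57 (SE 0.49, adjusted p = 1.33e-11) and 3.78 (SE 0.54, adjusted p = 9.11e-11) in the authors' deposited tables. These 3 members thus had low counts in both control libraries and stood apart from them in all 4 knockdown libraries.

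Mrpl52 and Mrpl42, both large-subunit proteins found in mitochondria alone, started from a higher level. Mrpl52 (gene 68836, chromosome 14, 54426909 to 54429756) stood at 496 and 723 normalized counts in the controls, 3904 and 4534 in BAF250A knockdown and 3022 and 3096 in BRD9 knockdown. The pairs of each group lay close together and did not overlap. Its deposited fold changes were 6.64-fold and 4.76-fold (log2 2.73, SE 0.44, adjusted p = 1.18e-08, and log2 2.25, SE 0.49, adjusted p = 6.9e-05). Of the 8 members higher in both knockdowns it alone shared 0.0% of its 31-base words with genes elsewhere. Mrpl42 (gene 67270, chromosome 10, 95480805 to 95501940) stood at 406 and 674 in the controls, 3425 and 3538 in BAF250A knockdown and 2517 and 3565 in BRD9 knockdown. It rose 6.19-fold and 5.30-fold, with adjusted p of 1.1e-07 and 4.4e-05.

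Mrpl23, which in ribosomes sits beside the opening where the new chain leaves (gene 19935, chromosome 7, 142532686 to 142540747), stood at 262 and 627 normalized counts in the controls, 2499 and 2375 in BAF250A knockdown and 1775 and 2299 in BRD9 knockdown. The controls differed 2.39-fold, less than the rise over either of them. It rose by 2.39 (SE 0.50, adjusted p = 2.12e-05) and 2.11 (SE 0.55, adjusted p = 0.00142) in the authors' deposited tables, and in limma the BRD9 call was lost without either BRD9 library (adjusted p up to 0.0949). Its coding sequence is the one shown above as identical to a pseudogene, so the count is uncertain as to its source.

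Mrps5, a small-subunit protein with a bacterial counterpart (gene 77721, chromosome 2, 127587222 to 127606829), stood at 369 and 592 normalized counts in the controls, 1551 and 1696 in BAF250A knockdown and 1492 and 1595 in BRD9 knockdown. The 4 knockdown libraries were within a narrow range above both controls. It rose 3.29-fold and 3.09-fold (adjusted p = 0.00119 and 0.0108 by the authors' Wald test). Over 1013 aligned coding bases Mrps5 was 98.7% identical to the pseudogene Gm13328. In limma the BAF250A call was lost without either BAF250A library (adjusted p of up to 0.12), and the BRD9 call without any 1 of the 4 knockdown libraries (up to 0.109). Mrps36 carries a ribosomal name but is known as a subunit of the 2-oxoglutarate dehydrogenase complex (gene 66128, chromosome 13, 100735955 to 100744659). It stood at 237 and 470 in the controls, 1853 and 1964 in BAF250A knockdown and 949 and 1425 in BRD9 knockdown, a rise of 5.18-fold and 3.21-fold with adjusted p of 8.73e-06 and 0.0157. The BRD9 call, but not the BAF250A call, was lost in limma whichever library was left out (adjusted p 0.0512 to 0.173). Its coding bases were 99.3% identical to those of Mrps36-ps1, the closest of 6 pseudogenes that hold 5% or more of its words.

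**Figure D2:**
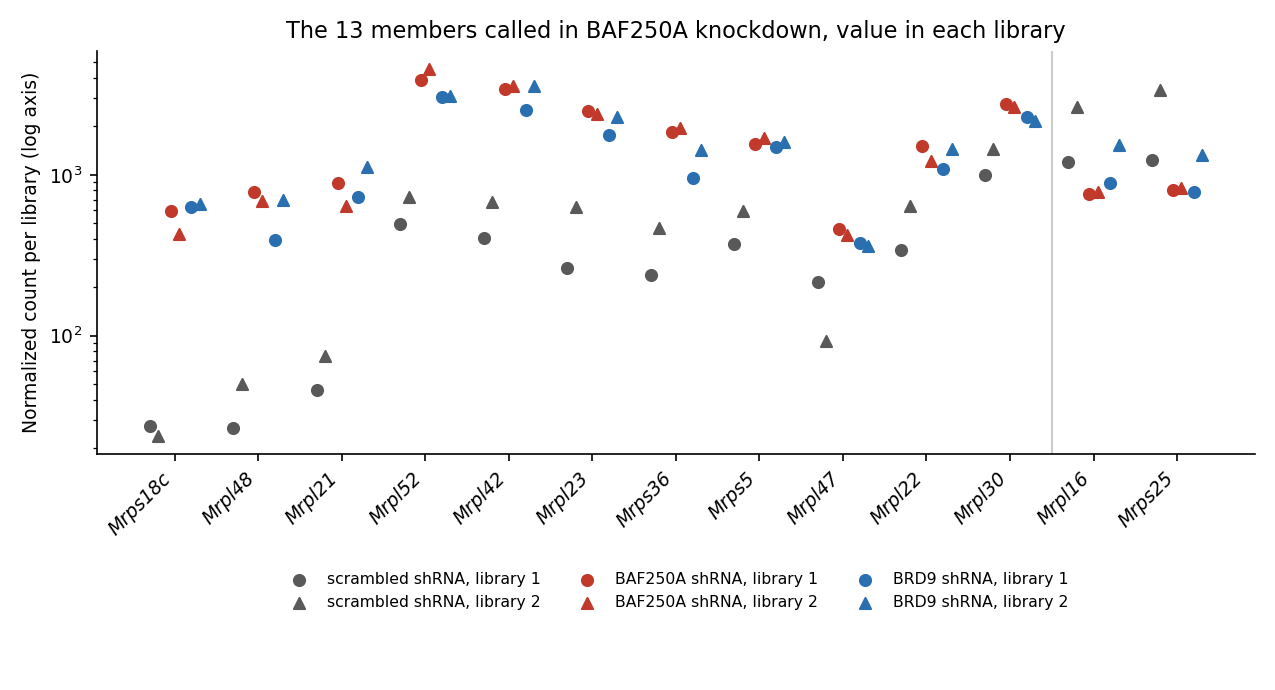
Normalized count (vertical log axis) in each of the 6 libraries for the 13 members called in BAF250A knockdown; circles and triangles are libraries 1 and 2 of a group, and the line parts 11 risen from 2 fallen members. For Mrps18c the controls stand at 27.3 and 23.8 and the 4 knockdown libraries at 431 to 661.

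Another 3 large-subunit members, all with a bacterial counterpart, passed the test with BAF250A and not with BRD9. Mrpl47 stood at 217 and 92.3 normalized counts in the controls, 462 and 424 in BAF250A knockdown and 378 and 361 in BRD9 knockdown. It is one of the 9 members lower in control 2 than in control 1. Mrpl22, which lines the tunnel of the growing chain, stood at 340 and 641 in the controls, 1515 and 1219 in BAF250A knockdown and 1093 and 1453 in BRD9 knockdown. Over 617 aligned coding bases Mrpl22 was 97.2% identical to the pseudogene Gm6997. Mrpl30 stood at 1003 and 1443 in the controls, 2764 and 2633 in BAF250A knockdown and 2282 and 2151 in BRD9 knockdown. In each of the 3 all knockdown libraries were above both controls. The authors' deposited log2 fold changes with BAF250A were 1.47 (adjusted p = 0.0236), 1.44 (adjusted p = 0.0127) and 1.12 (adjusted p = 0.0401), and with BRD9 they were 1.18, 1.33 and 0.83, with adjusted p of 0.184, 0.0706 and 0.294. The difference between the knockdowns was not called for any of the 3. In limma these 3 calls were lost without any 1 of the 4 knockdown libraries, with adjusted p of up to 0.235 for Mrpl47, 0.243 for Mrpl22 and 0.304 for Mrpl30, each highest without BAF250A library 1. The Mrpl47 call was also lost without control 2 (0.058) and the Mrpl22 call without control 1 (0.0718), while Mrpl30 passed with either control left out.

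The 2 members that fell in BAF250A knockdown rest on 1 control library. Mrps25, a small-subunit protein found in mitochondria alone (gene 64658, chromosome 6, 92169525 to 92184033), stood at 1237 and 3367 normalized counts in the controls, 807 and 833 in BAF250A knockdown and 784 and 1329 in BRD9 knockdown. The BAF250A libraries were below both controls, but the controls differed 2.72-fold from each other. The log2 ratio of the BAF250A mean was -0.59 to control 1 and -2.04 to control 2. Mrpl16, which in ribosomes lies near the site of peptide bond formation (gene 94063, chromosome 19, 11770391 to 11774960), stood at 1192 and 2625 in the controls, 761 and 779 in BAF250A knockdown and 894 and 1528 in BRD9 knockdown. Its log2 ratios were -0.63 to control 1 and -1.77 to control 2. The authors' deposited log2 fold changes were -1.44 (SE 0.52, adjusted p = 0.0231) and -1.27 (SE 0.49, adjusted p = 0.0363). Neither passed in limma on the recovered reads, with adjusted p of 0.0937 and 0.0948, nor without control 2 (0.345 and 0.328). Of the words of Mrps25, 74.6% lie in the overlapping gene Nr2c2, so reads of the 2 genes are hard to part.

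The control libraries stood apart for nearly the whole family. Of the 78 members 69 were higher in control 2 than in control 1, 88.5% against 51.5% of the 15131 genes tested in both tables and resolved. The median log2 ratio of control 2 to control 1 was 1.04 over the members and 0.06 over all those genes. The 2 BAF250A libraries differed by a median of -0.05 over the members and the 2 BRD9 libraries by 0.36. As a result the sign of the family median depends on the control: it was 0.23 against control 1 and -0.66 against control 2 with BAF250A, and 0.30 and -0.76 with BRD9. In each knockdown 27 members were above 1 control and below the other, 34.6% against 25.8% of all genes with BAF250A and 29.9% with BRD9. All 11 and all 8 risen members were more than 1.5-fold above each control taken alone. Of all resolved genes 10.4% and 4.87% were both called higher and met this rule. Called higher at all were 11.2% and 5.11% of the genes tested, so most called genes meet it and it does not set the members apart. limma on the recovered reads called the same 11 and 8 members higher, against 9.4% and 5.23% of all genes, and 0 lower, against 17.4% and 10.8%.

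**Figure D3:**
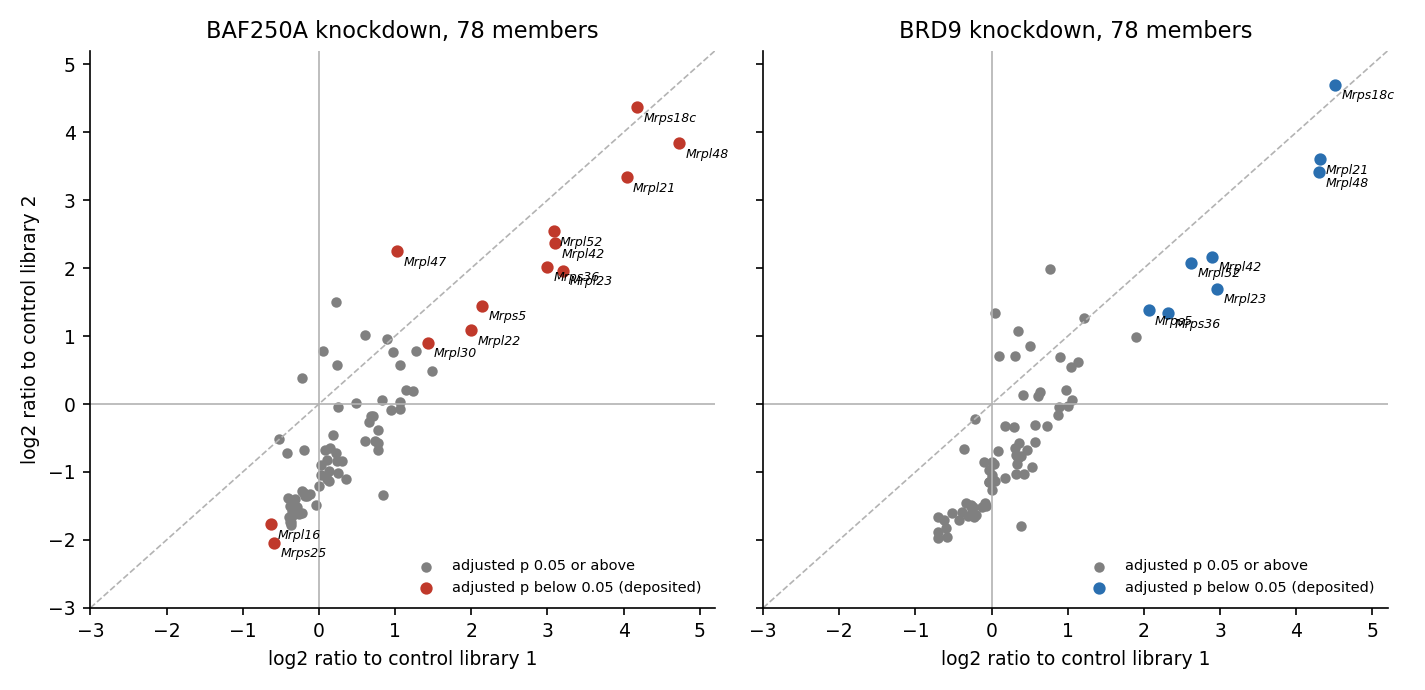
Log2 ratio of the mean of the knockdown libraries to control library 1 (horizontal) and to control library 2 (vertical) for the 78 members in BAF250A (left) and BRD9 (right) knockdown; coloured members had an adjusted p below 0.05 and the dashed line marks equal ratios. Most members lie below the line, while Mrps18c, at 4.18 and 4.37 with BAF250A, lies close to it.

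The ratio of the controls moved with the make-up of the transcripts. Across 9771 genes with a mean of 100 or more normalized counts, Spearman's rho of the log2 ratio of control 2 to control 1 was 0.72 with transcript GC content and -0.54 with transcript length. These genes share their 2 libraries and are no replicates, so the values are a description. With genes in 5 bins of GC content, the median ratio ran from -1.30 in the lowest bin to 0.85 in the highest. The members had a median GC content of 50.1%, equal to that of all these genes, but a median transcript length of 1316 bases against 3116, and 50 of 77 were in the shortest of 5 length bins, whose median ratio was 0.89. Against control 1 alone the BAF250A ratio had a rho of 0.04 with GC content, and against control 2 alone -0.51. With transcript length its rho was -0.23 against control 1 and 0.23 against control 2, and that of the BRD9 ratio -0.18 and 0.32, so a length trend of opposite sign stood against either control. The part of this in the family's changes was not tested beyond the values against each control.

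**Figure D4:**
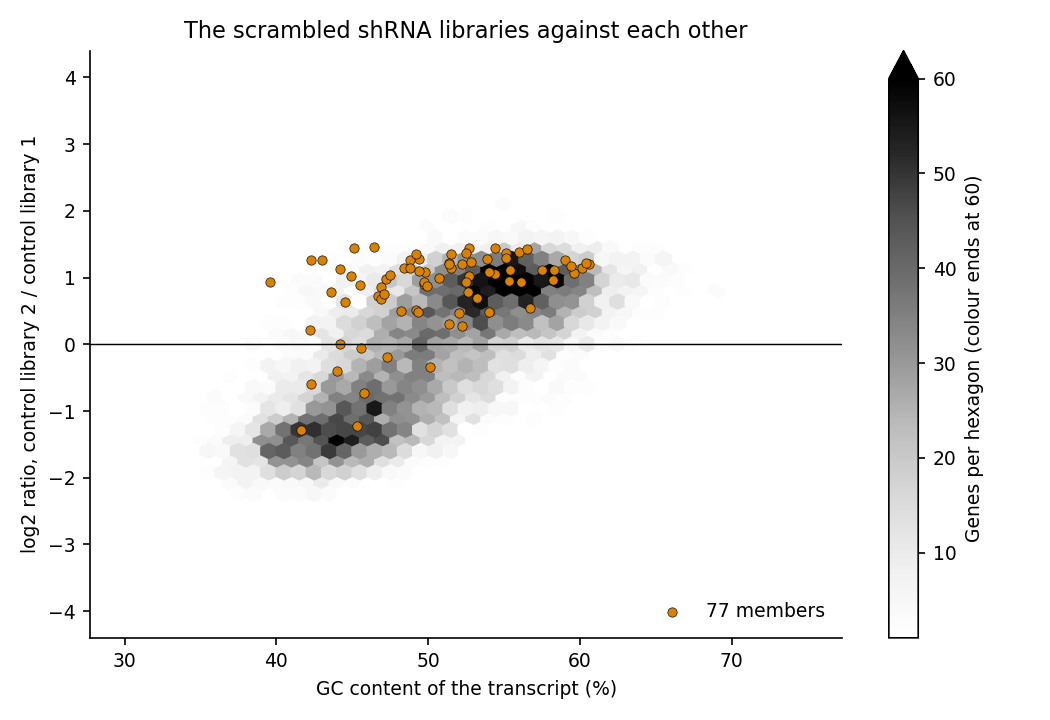
Log2 ratio of control library 2 to control library 1 (vertical) against the GC content of the transcript in percent (horizontal) for 9771 genes as shaded hexagons and for 77 members as points. Genes rise from left to right (rho 0.72), and the members have a median of 1.03.

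Among the members not called, the most abundant were Mrpl28 and Mrpl14, proteins with bacterial counterparts, and Mrpl14 forms a contact between the subunits. Mrpl28 stood at 6539 and 12813 normalized counts in the controls, 4970 and 4874 in BAF250A knockdown and 3337 and 4725 in BRD9 knockdown. Mrpl14 stood at 5738 and 12993, at 5288 and 4814 and at 3273 and 3752. In both genes the knockdown libraries were below both controls, and the controls themselves differed 1.96-fold and 2.26-fold. The authors' deposited log2 fold changes were -0.95 and -1.20 for Mrpl28 and -0.87 and -1.35 for Mrpl14, with adjusted p from 0.0687 to 0.178. Mrpl38 and Mrpl4 lay between the controls in the BAF250A libraries and Mrpl17 likewise, with fold changes of -0.39, 0.09 and -0.50 there, and none passed in either table.

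The low end of the fold changes was a dense group. In BAF250A knockdown Mrps12, Mrps26 and Mrpl20 stood at -1.20, -1.17 and -1.17, with adjusted p of 0.0649, 0.0674 and 0.0683. In BRD9 knockdown the 5 lowest were Mrpl57 (-1.40), Mrpl14 (-1.35), Mrps24 (-1.35), Mrpl54 (-1.26) and Mrpl28 (-1.20), with adjusted p from 0.0601 to 0.125. Mrps12 belongs to the decoding site of the small subunit, and it stood at 1329 and 3576 normalized counts in the controls, 1031 and 1045 in BAF250A knockdown and 1041 and 1490 in BRD9 knockdown. All libraries but control 2 were thus within a narrow range. Counting members whose groups did not overlap, 21 were higher and 25 lower in both BAF250A libraries than in both controls, 26.9% and 32.1% against 28.2% and 38.1% of all genes. With BRD9 the counts were 20 and 17, 25.6% and 21.8% against 21.8% and 30.9%.

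One member was close to absent. Mrpl36, which has a bacterial counterpart, stood at 0.635 and 6.4 normalized counts in the controls, 1.25 and 2.59 in BAF250A knockdown and 2.28 and 0 in BRD9 knockdown, and its fold change has an SE of 1.48 and 1.34. The next lowest members by mean normalized count were Mrps18c and Mrpl47, at 268.98 and 298.88 in the BAF250A table. Per kilobase of transcript, the control libraries had their highest mean levels for Mrpl14 at 14520 normalized counts per kb, Mrpl28 at 9060 and Mrpl54 at 8096, while Mrpl52 had 1459. In both knockdowns Mrpl52 was first, at 10093 per kb with BAF250A and 7318 with BRD9, before Mrpl14 at 7831 and 5446. Mrps18c averaged 618 per kb over the 6 libraries, Mrpl21 512, Mrpl48 102 and Mrpl36 2.37. Lengths are those of the longest principal coding transcript, or of the longest coding transcript where none is so labelled. For Mrpl48 this is 4285 bases, while its median coding transcript has 865, so levels per kb depend on that choice.

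By subunit and ancestry the 4 classes had medians between -0.56 and 0.00. The 30 large-subunit members with a bacterial counterpart had medians of -0.36 and -0.47 (BAF250A and BRD9), with 5 higher and 1 lower and with 2 higher and 0 lower. The 21 large-subunit members found in mitochondria alone had medians of -0.32 and -0.23, with 3 higher in each and 0 lower. This class includes Mrps30 and Mrps18a, which are placed in the large subunit despite their names. The 16 small-subunit members with a bacterial counterpart had medians of 0.00 and -0.07, with 2 higher in each. The 10 small-subunit members found in mitochondria alone had medians of -0.56 and -0.29, and none rose while Mrps25 fell with BAF250A. Among all genes tested 11.2% rose and 17.5% fell with BAF250A, and 5.11% rose and 9.33% fell with BRD9. No class was tested against another.

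Members with a pseudogene copy held most of the risen genes. Of the 21 members with a processed pseudogene holding 5% or more of their words, 8 rose in BAF250A knockdown and 7 in BRD9 knockdown, with median log2 fold changes of 0.78 and 0.53. Of the 57 others 3 and 1 rose, with medians of -0.52 and -0.51. Among all genes tested 11.2% rose with BAF250A and 5.11% with BRD9. The split was made after the fold changes were known, so it has no test. Mrpl27, with 49.2% of its words elsewhere, stood at -0.05 and -0.47. Of the 28 copies of the 21 members 2 have a row of their own in the deposited tables, and neither is a copy of a risen member. Gm13552, which holds 31.4% of the words of Mrps18b, stood at 729 and 1524 normalized counts in the controls, 61.2 and 62.1 in BAF250A knockdown and 22.8 and 97.9 in BRD9 knockdown. It fell by 4.07 and 3.95 (adjusted p = 8.95e-14 and 3.48e-08) in the authors' deposited tables, where Mrps18b itself stood at 0.39 and 0.53. Gm6578, a copy of part of Mrpl32, stood at 456 and 442 in the controls and at 0 in all 4 knockdown libraries. Both copies were thus high in the controls and low or at 0 in the knockdowns.

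Other genes with a pseudogene symbol mostly moved the same way, in a set taken by symbol and not by type of pseudogene. Of 110 genes with a symbol ending in -ps, a set chosen after values were seen, 1 was higher and 82 lower with BAF250A, and 0 were higher and 78 lower with BRD9 by the authors' Wald test. The lower ones were 74.5% and 70.9% of the set, beside 17.5% and 9.33% of all genes tested. Their median deposited log2 fold changes were -3.78 and -3.83, beside -0.19 and -0.14 for all genes. Rpl13-ps6, a copy of a cytosolic ribosomal protein gene, stood at 7851 and 21582 normalized counts in the controls and at 50.1 to 102 in the knockdown libraries. Gapdh-ps15, a copy of a glycolysis gene, stood at 9815 and 17241 and at 12.2 to 25.9. These 2 rows are examples that fell further than the median of the set, with log2 fold changes of -7.09 and -8.80 with BAF250A. Neither is a copy of a member, and the part of shared reads in the members' rises was not tested.

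**Figure D5:**
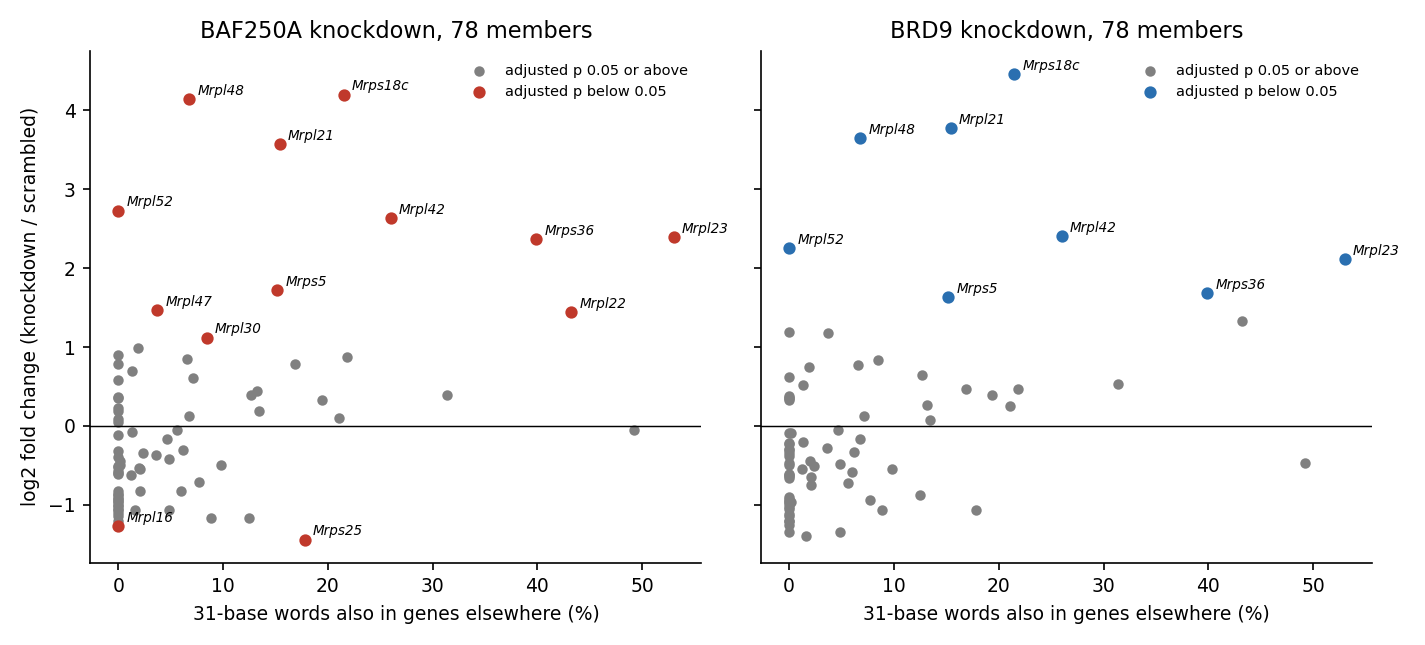
Deposited log2 fold change (vertical) against the share of a member's 31-base words that occur in genes elsewhere, in percent (horizontal), for the 78 members in BAF250A (left) and BRD9 (right) knockdown; coloured members had an adjusted p below 0.05. Mrpl52 rose with 0.0% shared words and Mrpl23 with 53.0%, while grey points reach 49.2%.

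Promoters were read for 69 of the 78 members from the RefSeq table (GRCm38.p6), as the 250 bases before the first listed start. The motif letters searched on both strands were GCGCANGCG for NRF1 and CCGGAAG for ETS factors such as GABPA, regulators known to bind promoters of mitochondrial genes, and AAGATGGC for YY1; the 3 can overlap. The ETS letters were in 24.6% of the members' promoters and 7.05% of all 27025 promoters, and the NRF1 letters in 18.8% and 5.33%. The YY1 letters were in 5.8% and 1.59%. Of the 8 members higher in both knockdowns 2 had the ETS letters, Mrps18c and Mrpl52, and 0 had those of NRF1 or YY1. The stretch of Mrpl52, shown because this risen member has no pseudogene copy, is chr14:54426659-54426908 on the plus strand, with the ETS match on the opposite strand, beginning 47 bases before the start, in capitals.

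Mrpl52 promoter: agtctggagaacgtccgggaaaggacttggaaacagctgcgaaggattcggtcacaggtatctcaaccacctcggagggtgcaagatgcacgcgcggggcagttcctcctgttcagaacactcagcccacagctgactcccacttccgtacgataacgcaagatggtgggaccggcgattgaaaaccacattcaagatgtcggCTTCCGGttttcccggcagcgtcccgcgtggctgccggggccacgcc

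The knockdowns could not be told apart over the members. Taken as BAF250A minus BRD9, the deposited log2 fold changes differed by values that ran from -0.66 (SE 0.74) for Mrpl16 to 0.69 (SE 0.72) for Mrps36. By the z test of the difference 0 of 78 members passed at an adjusted p below 0.05 and 0 at an unadjusted p below 0.05. Of the 16311 genes tested in both, 2.54% and 8.35% passed. The z test treats the errors of both fold changes as independent, although both use the same control libraries. It is therefore conservative, for members and all genes alike, and its lack of calls does not show equal effects. In limma the shared controls cancel from the difference itself, but their spread stays in its error, which is pooled over the 3 groups. There also 0 of 78 passed at an adjusted p below 0.05, against 4.31% of 15131 genes. For Mrps36 the limma difference was 0.71 (SE 0.45), so a difference of about this size remained below detection, and a p that misses the threshold does not show equal levels.

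Other genes of mitochondrial translation mostly stayed below the threshold too. The counts called in this list and those that follow stand beside shares of all genes tested. These were 11.2% higher and 17.5% lower with BAF250A, and 5.11% higher and 9.33% lower with BRD9. The lists are short and none was tested against all genes. Pseudogene copies were searched for the members alone and not for the genes of these lists. Among 5 mitoribosomal proteins with other names Dap3, a small-subunit protein that binds GTP, rose by 1.42 (SE 0.45, adjusted p = 0.00852) with BAF250A in the authors' deposited table, while its BRD9 value was 0.76 (adjusted p = 0.369). The others there were Gadd45gip1 at -1.09 and -1.11, Aurkaip1 at -0.72 and -1.05, Ptcd3 at -0.45 and 1.05 and Chchd1 at 0.51 and 0.00. Of 27 assembly factors 1 rose and 6 fell with BAF250A, and 1 fell with BRD9. Mrm3, which methylates the mitochondrial ribosomal RNA, fell by 2.20 (SE 0.53, adjusted p = 0.000318) with BAF250A and by 1.77 (SE 0.59, adjusted p = 0.0209) with BRD9 in the authors' deposited tables. Its controls stood at 812 and 2338 normalized counts and its knockdown libraries at 314 to 541, so that its log2 ratio with BAF250A was -1.31 to control 1 and -2.84 to control 2. The related Mrm1 and Mrm2 fell by 1.38 and 1.42 with BAF250A (adjusted p = 0.0245 and 0.0232) and stood at -1.21 and -1.25 with BRD9. Mettl17, an assembly factor of the small subunit, fell by 1.52 (adjusted p = 0.0112) with BAF250A and stood at -0.04 with BRD9. The methyltransferase gene Mettl15 rose by 1.77 (adjusted p = 0.0104) with BAF250A in the authors' deposited table.

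Of 17 translation factors 2 rose and 1 fell with BAF250A and 1 rose with BRD9. Tufm, the elongation factor that brings tRNAs to the ribosome, rose by 1.41 (SE 0.50, adjusted p = 0.0201) and 1.57 (SE 0.54, adjusted p = 0.0286) in the authors' deposited tables, and Mrrf, the recycling factor, rose by 1.27 (adjusted p = 0.0261) with BAF250A. Taco1, an activator of COX1 translation, fell by 1.28 (adjusted p = 0.0355) with BAF250A, and Lrpprc, which stabilises mitochondrial mRNAs, stood at 0.20 and 1.17 and passed in neither. Of 20 tRNA synthetases 1 rose and 2 fell with BAF250A and 1 rose with BRD9. Rars2, for arginine, rose by 1.43 (adjusted p = 0.0114) and 1.97 (adjusted p = 0.00154), while Cars2, for cysteine, fell by 1.90 (adjusted p = 0.000917) and Mars2, for methionine, by 1.43 (adjusted p = 0.0163) with BAF250A in the authors' deposited table. Iars2 and Nars2, next by p-value with BRD9, stood there at 1.04 and 0.90.

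Among 17 genes that express mitochondrial DNA, 1 rose in each knockdown and 0 fell. That gene was Ssbp1, the single-strand DNA binding protein of the mitochondrial genome, which stood at 50.2 and 51.2 normalized counts in the controls, 909 and 607 in BAF250A knockdown and 748 and 832 in BRD9 knockdown. Its controls were nearly equal and all knockdown libraries lay far above them, as with Mrps18c, but Ssbp1 was not searched for pseudogene copies. Ssbp1 rose by 3.80 (SE 0.48, adjusted p = 1.12e-13) and 3.81 (SE 0.51, adjusted p = 4.6e-12) in the authors' deposited tables. Of the others with the smallest p-values, Mtpap stood at 0.85 and 0.41, Pnpt1 at -0.95 and -0.56, Tfb2m at 0.45 and 0.92 and Tfam, which packs mitochondrial DNA, at 0.04 and 0.84. Of the 13 proteins encoded by mitochondrial DNA 0 rose in either knockdown, and ND6 fell by 1.63 (SE 0.42, adjusted p = 0.000931) with BAF250A in the authors' deposited table. COX1 stood at 0.60 and 0.72, ND2 at -0.52 and 0.29, ATP8 at 0.58 (SE 1.39) and 1.34 and ND4L at 0.07 (SE 1.41) and 1.19, the last 2 with 1 BAF250A library far below the other.

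Of 11 regulators of mitochondrial biogenesis 1 rose and 2 fell with BAF250A and 2 fell with BRD9. Ppargc1a, the coactivator that drives the making of mitochondria, stood at 494 and 189 normalized counts in the controls, 17.5 and 36.2 in BAF250A knockdown and 81.9 and 12.2 in BRD9 knockdown. It was below both controls in every knockdown library, and it fell by 3.51 (SE 0.62, adjusted p = 2.32e-07) and 2.63 (SE 0.74, adjusted p = 0.00391) in the authors' deposited tables. Esrra, a nuclear receptor that works with it, fell by 1.65 (adjusted p = 0.00442) and 1.44 (adjusted p = 0.0474). Sp1, a general transcription factor, rose by 1.27 (adjusted p = 0.048) with BAF250A in the authors' deposited table. There Myc, which drives growth, stood at -0.43 and with BRD9 at -0.69.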

How the data were processed

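The 6 libraries are those of the 3 shRNA groups. Per the submitters' processing notes the authors' tools were named as DESeq2, RSEM, Bowtie, StringTie and HISAT, without role or version, with the build mm10. Per the file headers the authors deposited for each gene a mean normalized count (a signal averaged over 4 libraries), a log2 fold change with its error on that scale, a Wald score, and a p-value with its adjusted p-value. The members and gene lists were chosen with earlier results of these data known.

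Whole reads per library were recovered for 19399 of 19444 genes searched (mean at most 8000), as whole numbers that return both deposited means. For 14293 of these the search met 1 such solution. For the others the deposited fold changes, given the standard errors, chose among several. Except for means below 30, the search also started near the level that the fold change implied. For 19031 genes, 77 of the 78 members among them, the solution returned the fold changes within 2e-05. That is no separate check where the fold changes were used in the choice. The other 368, Mrpl36 included, had means below 30 and rest on the means alone. Libraries shared by both tables are the controls, and genes read in those alone have negative fold changes, so positive means higher in the knockdown. Ratios use normalized counts with a pseudocount of 1. limma 3.58.1 (R 4.3.3, trend) on log2(normalized count + 1) was fitted to 15131 genes and checked on simulated data. The difference of the knockdowns was tested as the z of the deposited fold changes, with their errors taken as independent despite the shared controls. P-values were adjusted by Benjamini-Hochberg over all genes tested. GENCODE M21 gave coordinates, lengths, GC content and 31-base words. Named members are those called, the 5 highest and 5 lowest fold changes a table and the 5 most and 3 least abundant; from other lists, the 3 smallest p-values and all of a list with 5 or fewer. Alternatives tried were other adjustments and thresholds, centring, leaving out members with 10% or more of their words elsewhere and leaving out each library. The count of reads limits low genes such as Mrpl36. No sample column of unknown label was used.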

Additional observations from a re-analysis of the deposited data

How the results depend on the processing

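Bonferroni adjustment left 7 members higher and 0 lower with BAF250A and 4 higher with BRD9. Centring on the median of all tested genes left 0 lower with BAF250A. At an adjusted p below 0.01 the lower members with BAF250A came to 0, and below 0.1 to 8, with 3 lower in BRD9 knockdown. Among members with under 10% of their words elsewhere, 4 were higher and 1 lower with BAF250A and 2 higher with BRD9. Fewer members enter there, and the share is taken over all words of the transcripts. Mrpl48 enters at 6.79%, although its coding bases are 98.1% identical to those of a pseudogene. The rule thus does not leave out every member with a copy. limma on the recovered reads, an alternative chosen after seeing the data, called all 11 and all 8 of the risen members and 0 lower with BAF250A. Leaving out 1 library at a time in limma, the lone library of a group being assumed to vary like the others, gave 7 to 14 higher and 0 to 15 lower with BAF250A, and 5 to 9 higher and 0 to 10 lower with BRD9. The 15 and 10 lower members arose without control library 1, and without control library 2 there were 0. Of the risen members 7 of 11 and 5 of 8 passed in every such fit. The median of the members, leaving out 1 library at a time, ran from -0.66 to 0.23 with BAF250A and from -0.76 to 0.30 with BRD9, positive without control library 2 alone. The test between the knockdowns gave 0 members under each alternative run. No shares of all genes under these alternatives are given beside the counts. The counts therefore describe how the members' calls moved and not how the members compare with all genes. No paired analysis was possible because the recovered libraries carry no replicate letter. With 2 libraries a group, changes of the size of most members' fold changes were below detection.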

Other observations

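The proteins that mitochondrial ribosomes make showed a run of neighbouring genes with wide errors in 1 comparison. In the authors' deposited BAF250A table COX2, ATP8, ATP6, COX3, ND3 and ND4L had standard errors of 1.30 to 1.46 on the log2 scale, and the 7 other genes encoded by mitochondrial DNA had 0.42 to 0.45. In the BRD9 table all 13 had 0.47 to 0.52. These 6 genes lie next to each other on the mitochondrial genome, from base 7013 to 10173 (GRCm38), with no other protein gene among them. Reads per library were recovered for 3 of the 6. ATP8 stood at 170 and 9563 normalized counts in the 2 BAF250A libraries, ND3 at 15 and 2986 and ND4L at 69.9 and 5392. In the 4 other libraries ATP8 ranged from 2214 to 9365, ND3 from 3135 to 4231 and ND4L from 2274 to 7448, so that library 1 of the BAF250A knockdown was the lowest in each of the 3. The run was noticed after the values were seen, and it was not tested.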
